A study of Homo sapiens with 6 samples.

Results

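The genes described here encode the RAB GTPases of membrane traffic. They were all the genes whose platform symbol is RAB followed directly by a number, with pseudogenes left out and with symbols that run on into another name (RAB11FIP1, RAB3GAP1 and so on, 9 genes) set aside because those encode partner proteins. One probe set stood for each gene, chosen from those that carry no other gene's symbol by its mean over the 6 arrays, the highest. Of 58 such RAB genes, 41 had a mean above 4 on the log2 scale and were tested, among 10733 tested genes in all. The other 17 lay below that limit, and RAB34, RAB6C and RAB6D were seen only by probe sets shared with other genes.

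RAB proteins are small GTPases that mark the membranes of the secretory and endocytic routes. Each is loaded with GTP by an exchange factor, then recruits effectors such as tethers and motor proteins, and is switched off by a GTPase-activating protein. A lipid tail added by a RAB-specific prenyltransferase anchors them in the membrane, and in ductal epithelial cells they serve polarised delivery, recycling and secretion of surface glycoproteins.

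The arrays carried bulk RNA of Capan-1, an established line of human pancreatic carcinoma cells. Of the 6 arrays, 3 came from cells transfected with small interfering RNA (siRNA) against GNE (siGNE), which encodes the enzyme that starts sialic acid synthesis, and 3 from cells transfected with an AllStar control siRNA. All cells received siRNA 2 times, 48 h apart, at 0.4 µg per well, with the harvest 72 h after the last dose. The sources used here do not say how many GNE siRNAs were used or whether the replicates were grown as separate cultures, and p-values therefore measure only the spread between these arrays, which may be technical. Arrays with the same title number, 1 to 3, form the pairs used below.

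GNE read 8.39, 9.86 and 9.57 log2 units in siGNE cells, against 11.12, 11.47 and 10.86 in control cells, with no overlap. It fell by 1.88 (SE 0.292, limma adjusted p = 0.0348 with the replicate block, and 0.131 without it). All 7 ductal epithelial markers read above the test limit, with means from 10.64 to 15.34, and their summed log2 value ran from 97.7 to 97.8 in siGNE cells and from 97.2 to 97.5 in control cells. The leukocyte and endothelial markers (5 in all) had means of at most 2.96, which is background. Of 3 fibroblast markers, COL1A1 alone was above the limit. It read 8.82, 9.22 and 8.17 in siGNE cells, against 7.82, 8.80 and 7.47 in control cells, and rose by 0.71 (SE 0.134, limma adjusted p = 0.0441, and 0.512 without the block). COL1A2 and DCN stood at background (means of 2.45 and 2.74), and the summed values of the 3 were 13.3 to 14.4 in siGNE cells and 12.6 to 14.0 in control cells. The part of the COL1A1 difference in the results below was not tested. In bulk RNA, fewer cells expressing a gene and less RNA per cell cannot be told apart.

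The letters before the gene starts are given for the tested RAB genes with the smallest p-values for which a RefSeq promoter was at hand, since these lead the results below. Each is 300 bases on GRCh38.p14, from 250 bases before to 50 bases after the annotated start, read 5′ to 3′ on the gene's strand. They lie at chr2:237590685-237590984 (minus strand, RAB17), chr1:229270861-229271160 (plus, RAB4A), chr10:27504054-27504353 (plus, RAB18) and chr18:9708051-9708350 (plus, RAB31). Capitals mark matches to the motifs named in the next paragraph.
RAB17: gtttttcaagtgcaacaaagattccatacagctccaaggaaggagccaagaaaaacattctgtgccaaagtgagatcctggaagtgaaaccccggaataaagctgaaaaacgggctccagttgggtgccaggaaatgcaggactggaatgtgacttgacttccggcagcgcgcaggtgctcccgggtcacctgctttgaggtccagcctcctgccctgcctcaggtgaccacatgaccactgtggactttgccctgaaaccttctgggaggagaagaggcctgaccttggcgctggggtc
RAB4A: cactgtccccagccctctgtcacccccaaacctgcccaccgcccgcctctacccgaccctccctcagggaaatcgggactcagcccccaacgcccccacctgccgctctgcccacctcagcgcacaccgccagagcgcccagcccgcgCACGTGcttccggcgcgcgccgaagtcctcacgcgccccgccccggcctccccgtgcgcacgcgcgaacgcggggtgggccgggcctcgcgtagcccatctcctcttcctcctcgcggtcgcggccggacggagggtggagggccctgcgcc
RAB18: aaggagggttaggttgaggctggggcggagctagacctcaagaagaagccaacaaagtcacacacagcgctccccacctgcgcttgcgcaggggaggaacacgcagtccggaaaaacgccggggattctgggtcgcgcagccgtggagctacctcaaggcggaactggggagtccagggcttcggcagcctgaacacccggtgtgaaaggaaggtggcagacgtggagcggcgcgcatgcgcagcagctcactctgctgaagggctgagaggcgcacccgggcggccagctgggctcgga
RAB31: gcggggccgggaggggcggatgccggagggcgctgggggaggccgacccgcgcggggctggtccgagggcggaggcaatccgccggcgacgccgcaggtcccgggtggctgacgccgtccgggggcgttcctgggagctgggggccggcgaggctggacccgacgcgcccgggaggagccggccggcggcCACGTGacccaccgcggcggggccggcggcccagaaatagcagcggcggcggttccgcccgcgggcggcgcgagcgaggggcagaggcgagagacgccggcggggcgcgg

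3 motifs were searched on both strands, where matches of different motifs may overlap: CACGTG, the E-box core of the CLEAR element of lysosomal genes, TGACNNNGC, the core bound by NRF2, and TGATGNAA, the core of the composite site bound by ATF4. RAB4A held CACGTG at position -102 and RAB31 at position -60 from the start, while RAB17 and RAB18 held none of the 3. Promoters were found for 34 of the 41 tested RAB genes, and 6 of the 34 (17.6%) held CACGTG, against 7.26% of all 35116 promoters in the table. These 6 were RAB4A, RAB5A, RAB21, RAB24, RAB29 and RAB31. The NRF2 core was in 9 of the 34 (26.5%), against 13.3% of all promoters, and the ATF4 core in 1 of the 34, RAB28 (2.94%), against 3.62%. The 34 had passed the limit on expression, which was not applied to the promoters of the table. Of all 46 RAB genes with a promoter, tested or not, 6 held CACGTG, 10 the NRF2 core and 1 the ATF4 core. The RAB promoters were also richer in G and C, with a median of 66.2% against 58.7% over the table, and no allowance was made for this. RAB17 had 54.7% G and C and 7 CpG dinucleotides, whereas RAB31 had 82.7% and 52.

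Of the RAB transcripts, few changed after GNE silencing, at shares near or below those of all genes. 2 of the 41 tested genes, RAB38 and RAB17, rose by about 1.5-fold (4.88%, against 4.11% of all tested genes called higher), and 0 of 41 fell (against 5.79% of all tested genes called lower). These calls come from limma with the replicate block at an adjusted p under 0.05 over all 22085 tested probe sets (of which 9.49% passed, and 0.0408% without the block). In that fit, 12 of the 41 RAB genes had an unadjusted p under 0.05 (9 higher and 3 lower). A similar share of all tested probe sets did, 6984 of 22085. Either way, 4.88% of the RAB genes were called, and 9.89% of all tested genes. Without the block 0 of 41 RAB genes passed in limma (0.0280% of all tested genes did), and 3 RAB genes had an unadjusted p under 0.05, against 16.3% of all tested genes.

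The differences ran from -0.59 for RAB31 to 0.58 for RAB38 on the log2 scale. Of all tested genes, 9.91% differed by 0.59 or more in either direction and 1.98% by at least 2-fold, which 0 RAB genes did. The 95% interval of the difference lay inside a 2-fold change either way for 40 of 41 RAB genes and inside a 1.5-fold change for 30. RAB8A was the exception to the wider limit (-1.1 to 0.10). The median size of the difference, whatever its sign, was 0.19 for the RAB genes and 0.19 for all tested genes.

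The small differences lay more often above 0 than below. 27 of the 41 RAB genes (65.9%) had a positive difference, against 47.0% of all tested genes. The median difference was 0.16 for the RAB genes, with 0.11, 0.13 and 0.10 in pairs 1, 2 and 3, and -0.02 for all tested genes. The RAB median was 0.09 with all tested probe sets of each gene averaged and 0.07 with no filter on the mean. In all 3 pairs, 21 RAB genes (51.2%, against 27.0% of all tested genes) were higher and 6 (14.6%, against 30.9%) were lower. All siGNE values lay above all control values for 9 of the 41 RAB genes, against 9.42% of all tested genes. They lay below all control values for 1 of the 41, RAB8B, against 13.9% of all tested genes. Only with both directions pooled were the shares close, at 24.4% of the RAB genes and 23.3% of all tested genes. These counts describe the list and were not tested.

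**Figure D1:**
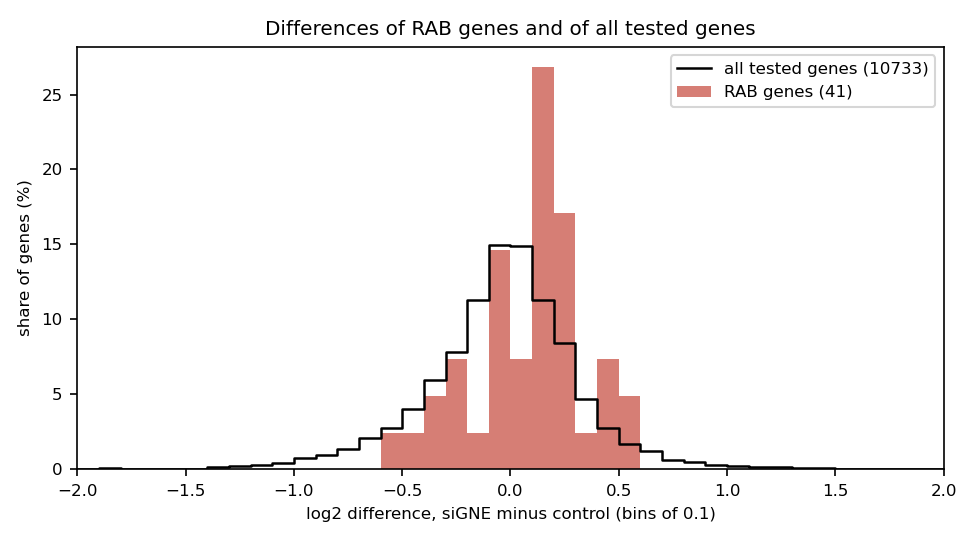
Share of genes (vertical axis, %) by log2 difference between siGNE and control cells (horizontal axis, bins of 0.1, mean of 3 pairs) for the 41 tested RAB genes (filled bars) and all 10733 tested genes (black line), drawn between -2 and 2. The RAB genes all lie between -0.59 and 0.58, with their tallest bar just above 0.1, while the line for all genes runs further out on both sides.

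**Figure D2:**
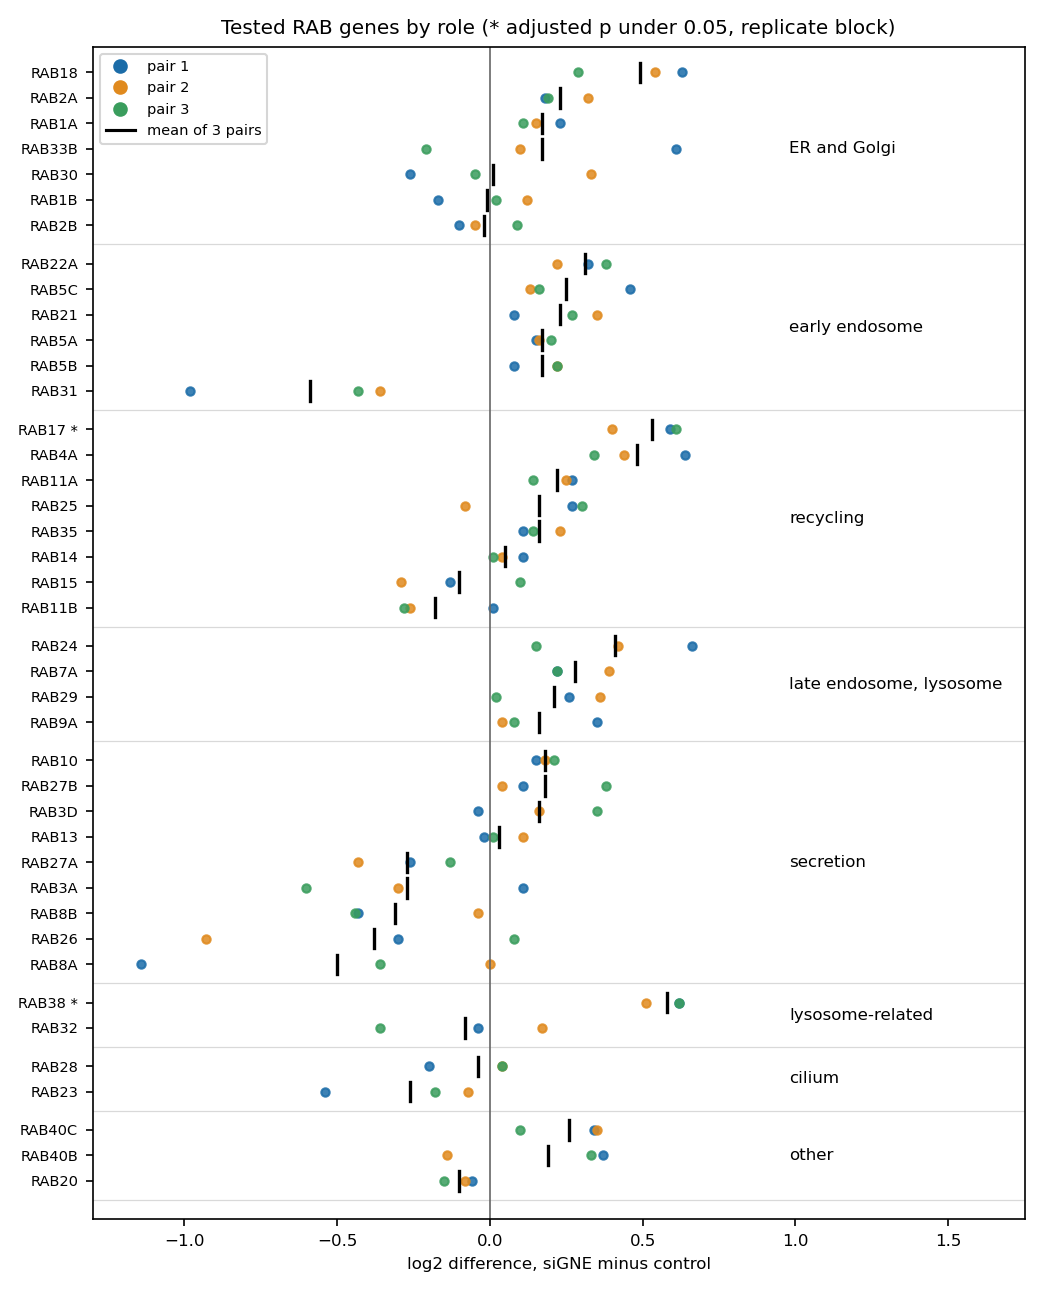
Log2 difference between siGNE and control cells (horizontal axis) of each of the 41 tested RAB genes, grouped by role, with 1 coloured point per pair and a black bar at the mean. RAB17 and RAB38, starred, are the genes past an adjusted p of 0.05, and RAB8A and RAB31 have their farthest point in pair 1, at -1.14 and -0.98.

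Among the RAB proteins of the endoplasmic reticulum (ER) and Golgi apparatus, 7 were tested and none was called in either direction, with differences from -0.02 to 0.49 (median 0.17). RAB18, which acts on the ER and on lipid droplets, read 11.54, 11.33 and 10.97 in siGNE cells, against 10.91, 10.79 and 10.68 in control cells. Its 3 siGNE values lay above the 3 control values, but the difference of 0.49 (SE 0.104) missed the threshold (limma adjusted p = 0.0537). RAB2A, which works between the ER and the Golgi, read 10.93, 11.05 and 11.11 in siGNE cells, against 10.76, 10.73 and 10.92 in control cells. These values did not overlap either, by a narrow margin, and the difference was 0.23 (SE 0.087, limma adjusted p = 0.151). RAB1A, which carries ER to Golgi transport, differed by 0.17 and its paralog RAB1B by -0.01. RAB2B, at -0.02, likewise lay nearer to 0 than its paralog RAB2A, although no difference between paralogs was tested here or below. The Golgi proteins RAB30 and RAB33B differed by 0.01 and 0.17, with RAB33B ranging from -0.21 in pair 3 to 0.61 in pair 1.

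The early endosome set was 6 genes, with 5 differences above 0, 1 below and no call. RAB31, which moves cargo between the trans-Golgi network and endosomes, read 9.28, 9.81 and 8.88 in siGNE cells, against 10.26, 10.17 and 9.31 in control cells. It was lower in each pair, by 0.98, 0.36 and 0.43, yet the groups overlap because the lowest control array (9.31) lay below the highest siGNE array (9.81). Its difference of -0.59 (SE 0.15) did not pass (limma adjusted p = 0.0738). RAB22A, a close relative that sorts cargo from early to recycling endosomes, had the opposite sign. It read 9.47, 9.21 and 9.29 in siGNE cells, against 9.16, 8.99 and 8.91 in control cells, so that every siGNE value was above every control value. The difference was 0.31 (SE 0.087, limma adjusted p = 0.0904). The 3 RAB5 paralogs, which drive the fusion of early endosomes, differed by 0.17 (RAB5A), 0.17 (RAB5B) and 0.25 (RAB5C) and were higher in every pair. RAB21, which takes part in integrin endocytosis, differed by 0.23.

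The recycling set held one of the genes that rose. RAB17, an epithelial RAB known from transcytosis and apical recycling in polarised cells, read 8.11, 7.98 and 8.28 in siGNE cells, against 7.52, 7.58 and 7.66 in control cells. The groups did not overlap, and RAB17 rose by 0.53 (SE 0.092), or 1.45-fold (limma adjusted p = 0.0402, and 0.151 without the block). RAB4A, which returns receptors quickly from early endosomes to the surface, read 11.39, 11.41 and 11.26 in siGNE cells, against 10.75, 10.97 and 10.92 in control cells. Those values were also apart, with a difference of 0.48 (SE 0.099), and stood just outside the threshold (limma adjusted p = 0.0516). RAB11A, the marker of the slower recycling endosome, differed by 0.22 with siGNE values of 13.64, 13.57 and 13.61, against 13.37, 13.32 and 13.47 in control cells (limma adjusted p = 0.160). Its other 2 tested probe sets had the opposite sign, at -0.07 and -0.11. Its paralog RAB11B differed by -0.18, from values near 5 where signal is weak. RAB25, the epithelial member of the RAB11 group, differed by 0.16, RAB35, which recycles cargo to the plasma membrane, by 0.16, RAB14, which acts between the Golgi and endosomes, by 0.05, and the endosomal RAB15 by -0.10.

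All 4 tested RAB genes of late endosomes and lysosomes were higher in all 3 pairs, with differences from 0.16 to 0.41, and none was called. RAB24, which is linked to autophagy, read 8.67, 8.92 and 9.03 in siGNE cells, against 8.01, 8.50 and 8.88 in control cells. The groups overlap, and the difference was 0.41 (SE 0.125, limma adjusted p = 0.102), with 0.66, 0.42 and 0.15 in the pairs. RAB7A, which governs the fusion of late endosomes with lysosomes, read 10.77, 10.86 and 10.55 in siGNE cells, against 10.54, 10.47 and 10.33 in control cells. Here the lowest siGNE array stood just above the highest control array, at a difference of 0.28 (SE 0.089, limma adjusted p = 0.111). RAB29, a Golgi and lysosome RAB, differed by 0.21 and RAB9A, which returns cargo from late endosomes to the Golgi, by 0.16.

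The 9 tested RAB genes of secretion were split, with 4 positive and 5 negative differences, a median of -0.27 and no call. RAB8B, which serves transport from the Golgi to the surface, read 10.58, 10.83 and 10.62 in siGNE cells, against 11.01, 10.88 and 11.06 in control cells. All its siGNE values lay below all control values, with pair 2 only 0.04 apart, and the difference was -0.31 (SE 0.117, limma adjusted p = 0.155). RAB8A, its paralog, differed by -0.50 with a wide error (SE 0.230), since the pairs stood at -1.14, 0.00 and -0.36. The 2 RAB27 paralogs, which dock secretory granules and exosome-bearing endosomes at the surface, had opposite signs. RAB27A read 9.59, 9.66 and 10.03 in siGNE cells, against 9.85, 10.09 and 10.17 in control cells, a difference of -0.27 (SE 0.099, limma adjusted p = 0.141). RAB27A was lower in all 3 pairs by this probe set although its groups overlap, while its 4 other tested probe sets stood between -0.18 and -0.03 and none was lower in every pair. RAB27B differed by 0.18 and was higher in all 3. RAB3A and RAB3D, of regulated secretion, differed by -0.27 and 0.16, and their pairs did not all share a sign. RAB26, known from secretory granules of exocrine cells, differed by -0.38 close to the test limit (4.27 in siGNE and 4.66 in control cells, on average). RAB10 and RAB13, which deliver membrane proteins to the basolateral side and to tight junctions, differed by 0.18 and 0.03.

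RAB38, which with RAB32 builds melanosomes and other lysosome-related organelles, was the other gene that rose. It read 8.51, 8.74 and 8.11 in siGNE cells, against 7.89, 8.23 and 7.49 in control cells. Across the groups the values overlap, while within pairs the differences were 0.62, 0.51 and 0.62. RAB38 rose by 0.58 (SE 0.085), or 1.5-fold (limma adjusted p = 0.0324). The block takes out the level that the arrays of a pair share, and without it the limma adjusted p was 0.353. RAB32 differed by -0.08 and its pairs had different signs.

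Of the remaining 5 tested genes none was called. RAB40C, which with RAB40B belongs to a group of RAB proteins that recruit ubiquitin ligases, read 8.93, 9.36 and 8.33 in siGNE cells, against 8.59, 9.01 and 8.23 in control cells. The spread between arrays of one group was larger than the difference of 0.26 (SE 0.097, limma adjusted p = 0.144). RAB40B differed by 0.19, RAB20, known as a hypoxia-responsive RAB, by -0.10, the cilium-associated RAB28 by -0.04 and RAB23, a regulator of Hedgehog signalling, by -0.26.

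**Figure D3:**
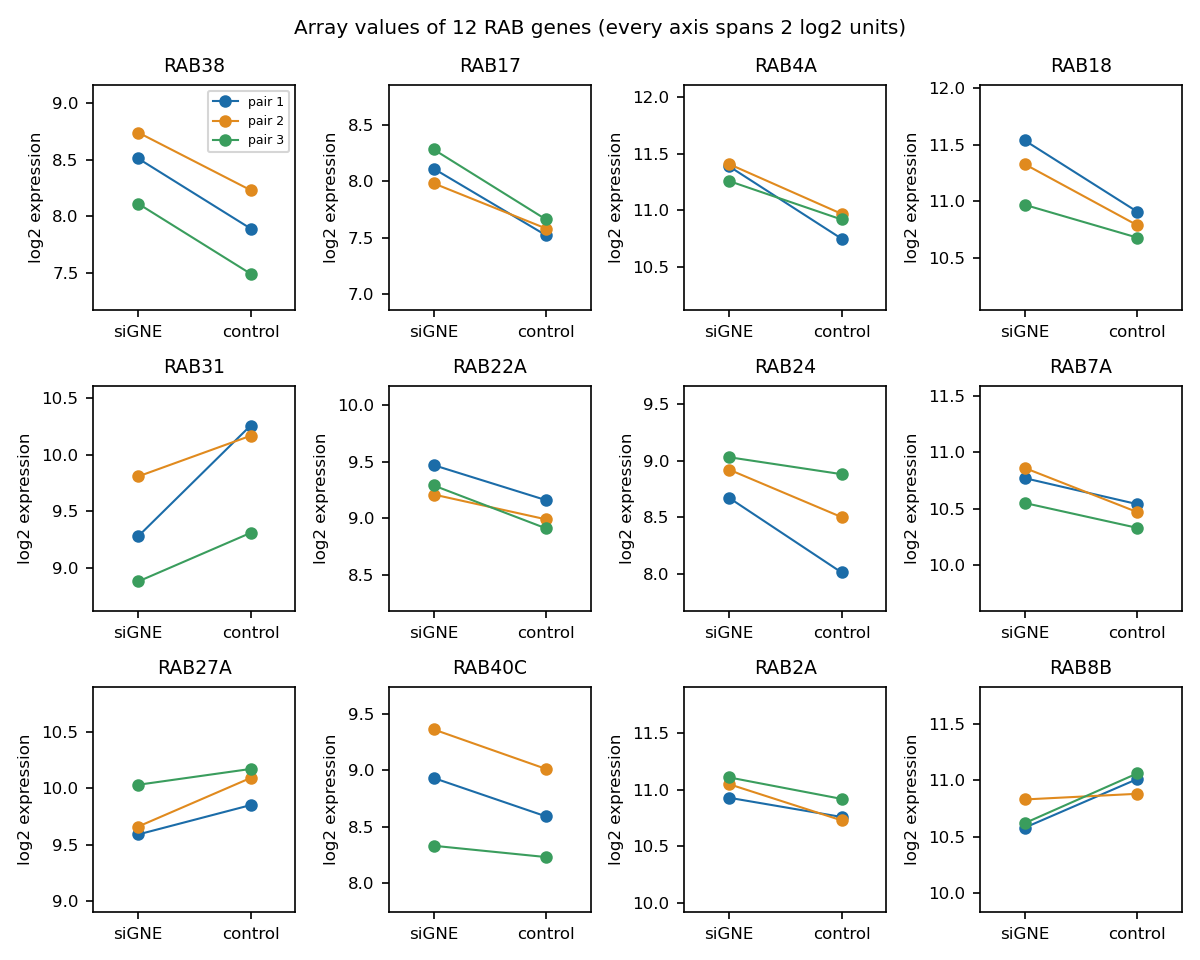
Log2 expression (vertical axes, each spanning 2 units) of the 12 RAB genes with the smallest p-values, siGNE left and control right, with a coloured line joining the arrays of a pair. The lines of RAB38 run nearly parallel at different heights (0.62, 0.51 and 0.62 apart), whereas those of RAB31 differ in slope (-0.98, -0.36 and -0.43).

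Other probe sets of the same genes were a second measure on the same arrays. There were 42 further tested probe sets for 24 of the RAB genes, of which 31 had the same sign as the one used and 11 the opposite sign. RAB38 and RAB17 had no second tested probe set. The 3 for RAB31 stood at -0.59, -0.45 and -0.51, and the 3 for RAB18 at 0.49, 0.39 and 0.27. For RAB8B they differed in sign, at -0.31, -0.31 and 0.26, and for RAB22A they stood at 0.31, -0.18 and 0.00. Averaged over all tested probe sets, RAB40C stood at 0.12 in place of 0.26, RAB2A at 0.13 in place of 0.23 and RAB27A at -0.14 in place of -0.27.

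Of the 42, 2 passed where the one used did not, while 9.49% of all tested probe sets passed. Both are named here after their values were seen. The RAB4A one read 8.76, 8.85 and 8.73 in siGNE cells, against 7.67, 8.05 and 7.75 in control cells. It rose by 0.95 (SE 0.098, limma adjusted p = 0.0242, and 0.0806 without the block), about 2 times the log2 difference of the probe set used. The RAB23 one read 5.36, 6.39 and 6.20 in siGNE cells, against 7.36, 7.61 and 7.25 in control cells. It fell by 1.42 (SE 0.204, limma adjusted p = 0.0317, and 0.121 without the block), against -0.26 for the probe set used, and the third RAB23 probe set differed by -0.34. One of RAB21 differed by -1.03 (SE 0.457, limma adjusted p = 0.203), with -2.40 in pair 1 and -0.07 and -0.61 in the others. Which transcript forms these probe sets detect was not examined.

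**Figure D4:**
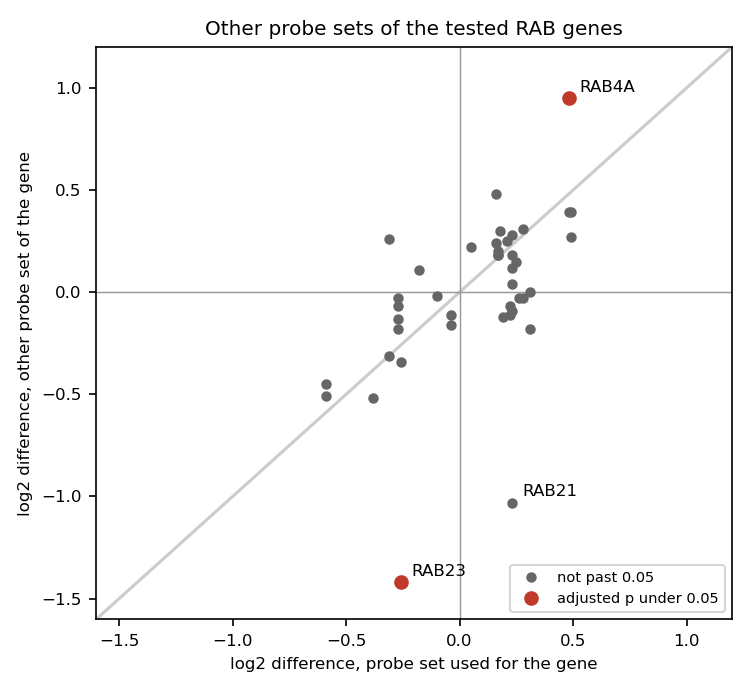
Log2 difference between siGNE and control cells of each of the 42 other tested probe sets (vertical axis) against that of the probe set used for the same RAB gene (horizontal axis), with the line of equality in grey and those past an adjusted p of 0.05 in red. RAB4A (0.95 against 0.48) and RAB23 (-1.42 against -0.26) lie farther from 0 than the probe sets used, and that of RAB21 lies at -1.03 against 0.23.

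Genes that load, switch and read RAB proteins were set beside the RAB genes themselves, as lists by role. The RAB prenyltransferase attaches the membrane anchor, and its alpha subunit RABGGTA read 6.60, 7.15 and 6.91 in siGNE cells, against 8.21, 8.11 and 8.0 in control cells. Every siGNE value lay below every control value, and RABGGTA fell by 1.22 (SE 0.15, limma adjusted p = 0.0281, and 0.0785 without the block). RABGGTB, the catalytic beta subunit, read 11.02, 11.01 and 10.85 in siGNE cells, against 10.36, 10.70 and 10.76 in control cells, and did not pass at 0.36 (SE 0.134, limma adjusted p = 0.149). Its pairs stood at 0.66, 0.31 and 0.10, and without pair 1 the difference was 0.21. CHML, an escort protein that presents new RAB proteins to the transferase, differed by -0.48 (limma adjusted p = 0.0759), and 2 of its other probe sets fell by 0.65 and 0.58 (limma adjusted p = 0.0431 and 0.0450). ICMT, which methylates prenylated cysteines, differed by -0.32, and GDI2, which extracts RAB proteins from membranes, by 0.08. Of 8 tested genes in this list, 0 rose and 1 fell (12.5% called, against 9.89% of all tested genes).

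Of 42 tested exchange factor genes, 3 rose and 4 fell (16.7% called, against 9.89% of all tested genes), with a median difference of 0.09. 5 of these 7 encode subunits of the TRAPP complexes, which activate RAB1 and related proteins at the Golgi, a grouping made after the values were seen and given no test. The other 4 tested TRAPP genes, TRAPPC1, TRAPPC3, TRAPPC4 and TRAPPC6A, were not called, at -0.01 to 0.16. TRAPPC2L fell by 0.84 (SE 0.115), TRAPPC2 by 0.76 (SE 0.116) and TRAPPC9 by 0.59 (SE 0.106), while TRAPPC6B rose by 0.65 (SE 0.086) and TRAPPC5 by 0.51 (SE 0.092), with limma adjusted p from 0.0286 to 0.0425. Averaged over all its tested probe sets, TRAPPC2L stood at -0.28. DENND6A, an exchange factor for RAB14, fell by 0.90 (SE 0.142, limma adjusted p = 0.0355), and DENND1B, one for RAB35, rose by 0.75 (SE 0.112, limma adjusted p = 0.0335). Their substrates RAB14 and RAB35 differed by 0.05 and 0.16.

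Among 32 tested GTPase-activating proteins, 3 rose and 0 fell (9.38%, against 9.89%), with a median of 0.05. TBC1D19 rose by 1.15 (SE 0.188, limma adjusted p = 0.0371), with 5.88, 5.12 and 5.11 in siGNE cells, against 4.23, 4.37 and 4.05 in control cells, which is close to the test limit of 4. TBC1D9 rose by 0.56 (SE 0.093, limma adjusted p = 0.0380) and RABGAP1L by 0.41 (SE 0.084, limma adjusted p = 0.0492), and TBC1D23 did not pass at 0.38. RABGAP1L averaged 0.04 over all its tested probe sets, and it was not called under median centring (limma adjusted p = 0.0514) or robust variances (0.0529). The proteins of all 3 called genes carry the TBC domain that speeds GTP hydrolysis by RAB proteins.

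Of 54 tested effectors, 7 rose and 2 fell (16.7%, against 9.89%), with a median of 0.04. RAB11FIP1, which binds RAB11 and RAB25 on recycling endosomes, read 9.90, 9.85 and 9.97 in siGNE cells, against 9.05, 9.23 and 9.08 in control cells. Its groups were well apart, and it rose by 0.78 (SE 0.098, limma adjusted p = 0.0281, and 0.0806 without the block), with 0.51 as the mean over all its tested probe sets. A second family member, RAB11FIP5, rose by 0.51 (SE 0.088), as did MYO5B, the myosin motor that RAB11 recruits, by 0.55 (SE 0.102), with limma adjusted p of 0.0401 and 0.0431. RAB11FIP2 (0.25), RAB11FIP3 (0.02), RAB11FIP4 (0.01) and the related motor MYO5C (-0.32) were not called. OSBPL1A, a cholesterol-sensing effector of RAB7A, rose by 0.83, ACAP2, a RAB35 effector, by 0.58, MYO5A, the motor of RAB27A carriers, by 0.55 and OPTN, a RAB8A effector, by 0.47 (limma adjusted p from 0.0416 to 0.0491). These 4, MYO5B, DENND6A, TRAPPC9 and TRAPPC5 were named after their values were seen. BICD2, the adaptor that couples RAB6A vesicles to dynein, read 8.91, 9.72 and 9.72 in siGNE cells, against 10.85, 10.76 and 10.79 in control cells. It fell by 1.35 (SE 0.206, limma adjusted p = 0.0343), and INPP5B, an inositol phosphatase that binds RAB proteins, fell by 0.66 (SE 0.085, limma adjusted p = 0.0284). INPP5B read 4.13, 4.28 and 5.65 in siGNE cells, against 4.83, 4.86 and 6.35 in control cells. Its groups overlap, most of its values lie close to the test limit of 4, and without the block its limma adjusted p was 0.686. The calls of all 4 lists were made with the replicate block, and without it 0 of these genes passed in limma. In that limma fit without the block, 15 higher and 9 lower genes had an unadjusted p under 0.05. By list these were 25% (prenylation and delivery), 21.4% (exchange factors), 9.38% (GTPase-activating proteins) and 18.5% (effectors), against 16.3% of all tested genes.

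**Figure D5:**
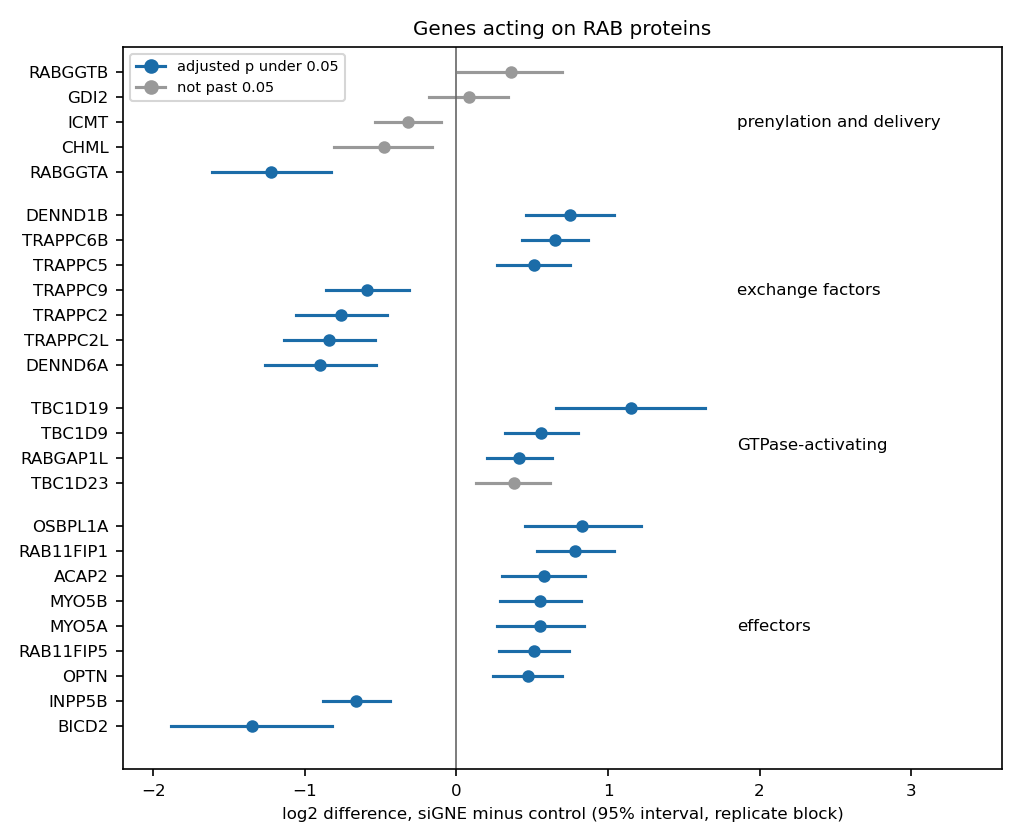
Log2 difference between siGNE and control cells with its 95% interval (horizontal axis) for the named genes of prenylation and delivery, exchange factors, GTPase-activating proteins and effectors, in blue where the adjusted p was under 0.05 with the replicate block. RABGGTA (-1.22) and BICD2 (-1.35) lie farthest to the left and TBC1D19 (1.15) farthest to the right.

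The 17 RAB genes below the test limit had means from 2.14 to 3.97, and 12 of the 17 were under 3, about the array median. Among them were RAB3B, RAB3C, RAB7B, RAB9B, RAB33A, RAB37, RAB39A and RAB39B. The genes just outside the limit were RAB36 (mean 3.97), RAB6B (3.5) and RAB6A (3.32), and those just inside were RAB26 (4.47), RAB11B (5.05) and RAB30 (5.18). For RAB6A this reading comes from its only probe set of its own, and its other probe sets are annotated to RAB6D as well. RAB36 stood at 5.25 on one siGNE array and between 3.45 and 4.04 on the other 5 arrays. RAB12 was below the limit only by the rule against cross-hybridising probe sets: its probe set of that kind had a mean of 11.17 and differed by 0.07 (SE 0.103, limma adjusted p = 0.695).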

How the data were processed

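Per the labels, total RNA (300 ng) of 3 siGNE and 3 control samples was hybridised to Affymetrix arrays. The deposited values are log2 expression for 54675 probe sets, which the authors made with GCRMA, per the submitters' processing notes. No version, and no word on joint processing of the arrays, is given in the sources used here. GCRMA models background, so values near the array median of about 3 carry little signal, and differences that start there can be understated. No renormalization was applied, and arrays have no read depth, so their number limits the precision.

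Symbols came from the platform annotation, updated through gene identifiers (41043 of 41097 probe sets with 1 symbol matched) in a RefSeq table of GRCh38.p14, from which the promoters were also taken. Probe sets marked _x_at stood for a gene only where it had no other. The test was limma 3.58.1 (R 4.3.3; lmFit and eBayes) on 22085 probe sets with a mean above 4, without 62 control probe sets, with the title number as a block (2 residual degrees of freedom) and Benjamini-Hochberg adjustment over all of them. The script was tested on simulated data with planted log2 changes of 1 and 2. Recovery of changes as small as those of the RAB genes was not tested. Arrays of the same number varied together: deviations from the group means correlated at 0.58, 0.71 and 0.83 for the same number and from -0.64 to 0.17 for different numbers. Such deviations cancel out within a group, so high correlations for the same number lower those for different numbers. What the number marks is not stated in the labels.

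Array values were named for GNE and the 12 RAB genes with the smallest p, and the 4 smallest of each partner list, RABGGTA, RABGGTB, CHML and GDI2; partner genes beyond these that passed, and array values of other genes, were picked after their values were seen. The members and lists were chosen with earlier results of these data known. Alternatives were the fit without the block, other filters, normalizations, variance models, probe sets and thresholds, and each pair left out.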

Additional observations from a re-analysis of the deposited data

How the results depend on the processing

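The fit without the replicate block called 9 probe sets, 0 RAB genes and 0 higher and 0 lower partner genes in limma, against 2095, 2, 13 and 7 with it, and GNE stood at -1.88 with an adjusted p of 0.131. With no filter on the mean, limma called 0 probe sets (7167 had an unadjusted p under 0.05), 0 RAB genes (14 higher and 3 lower unadjusted) and 0 higher and 0 lower partner genes (32 and 19 unadjusted), the RAB median was 0.07, and GNE stayed at -1.88 (adjusted p = 0.265). Fits on 2 of the 3 pairs had 1 residual degree of freedom and made 0 calls in every count (limma, 5022 to 5529 probe sets, 6 to 7 higher and 2 to 3 lower RAB genes and 21 to 26 higher and 9 to 13 lower partner genes unadjusted), with GNE between -2.17 and -1.45, the RAB median between 0.12 and 0.15, and GDI2 (0.08 in the fit reported) between -0.02, without pair 3, and 0.13. RAB38 (0.57 to 0.62), RAB17 (0.49 to 0.60) and RABGGTA (-1.35 to -1.03) kept their direction there. A filter at 6 called 3318 probe sets and, of 38 RAB genes, 4 higher and 1 lower. Of 41 RAB genes, an intensity trend called 5 higher and 1 lower, with 3146 probe sets in all. An adjusted p under 0.1 also called 5 and 1, with 4823 probe sets and 23 higher partner genes. RAB4A and RAB18 were called higher and RAB31 lower under each of these 3. Quantile normalization called 2646 probe sets in all and 4 of 41 RAB genes higher, with a RAB median of 0.18. Array weights called 2398 and 3, with a RAB median of 0.15. With all tested probe sets per gene, 1 RAB gene, RAB23, was called lower, and the median was 0.09. Over all 48 tested symbols of RAB and a number, partner proteins included, 4 were called higher (8.33%, against 4.11% of all tested genes). Filtering before choosing the probe set, an alternative chosen after seeing the data, added RAB12 and changed no count of RAB or partner genes called. The causes of these shifts were not tested beyond the fewer arrays or other probe sets of each setting.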

Other observations

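The ARF family of small GTPases was read in the same limma fit with the replicate block. Of 14 tested ARF family genes of 27 listed, 0 rose and 1 fell (7.14% called, against 9.89% of all tested genes), with a median difference of 0.00. The gene that fell was ARL2, a regulator of tubulin folding and mitochondria, by 0.62 (SE 0.082, limma adjusted p = 0.0286). ARL2 was read by a probe set marked _x_at, the cross-hybridising kind, because it had no other kind of its own. In the fit without the block its limma adjusted p was 0.110, short of the threshold.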
